A study of Mus musculus with 9 samples.

Results

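The 24 late-numbered miRNAs described here are the rows of an epididymosome miRNA table whose number after "miR-" is 1000 or higher, apart from 10 numbers that the rule leaves out. They make up 24 of the 358 miRNAs in the table. The rule reads names and no measured value, but its list of numbers to leave out was drawn up with earlier results of these data known. The 12 rows it left out were miR-1291, miR-1839-3p, miR-1839-5p, miR-1843a-5p, miR-1843b-3p, miR-1843b-5p, miR-3068-3p, miR-3470a, miR-3470b, miR-3535, miR-5621-5p and miR-7033-5p. The lowest number inside the limit was that of miR-1195, at a mean of 53.0 CPM over the libraries, and the highest number below it was that of miR-883a-3p, at 10.1 CPM. The members are miR-1195, miR-1198-5p, miR-1247-5p, miR-1249-3p, miR-1251-5p, miR-1957a, miR-1981-3p, miR-1981-5p, miR-3473a, miR-3473b, miR-3473e, miR-3473f, miR-5099, miR-5100, miR-5119, miR-5121, miR-5126, miR-5128, miR-6238, miR-6240, miR-6412, miR-6538, miR-6937-5p and miR-7087-3p.

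Epididymosomes, the small membrane vesicles that the epididymal epithelium sheds into the lumen, were recovered on an OptiPrep density gradient from 3 stretches of the duct: the caput, where spermatozoa enter, then the corpus, and last the cauda. The mice were Swiss males aged 8 weeks whose vessels had been flushed to limit blood. Small RNA was sequenced in 3 libraries per segment, 9 in all, each from RNA pooled over several animals, so that a replicate is a pool and not a mouse. Levels are in CPM, the read count of a miRNA scaled so that the miRNA reads of every library have the same total.

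The number in a miRNA's name records the order in which sequences were registered, and not family or function. miRNAs conserved across vertebrates were mostly found early, whereas high numbers came largely from deep sequencing of single species and include names that resemble pieces of repeats, snoRNAs and other abundant RNAs. A mature miRNA guides the silencing complex to a target mainly through its seed, bases 2 to 8 from the 5′ end. Little is known of the function of most of the members, and roles are given below only where they are well established.

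Mature sequences are those of RefSeq for GRCm38.p6, which had an entry for 22 of the 24 members. They are written 5′ to 3′. The miR-3473 names are shown because they share a run of 10 bases, in capitals, at different places in the molecule.
miR-3473a: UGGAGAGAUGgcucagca
miR-3473b: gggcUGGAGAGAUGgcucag
miR-3473e: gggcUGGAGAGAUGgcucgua
miR-3473f: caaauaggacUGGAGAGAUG
The run lay at bases 1 to 10 of miR-3473a, 5 to 14 of miR-3473b and miR-3473e, and 11 to 20 of miR-3473f. The seeds of miR-3473a and miR-3473f therefore differ from each other and from that of miR-3473b and miR-3473e, although the names share a number. miR-3473b and miR-3473e have 18 bases in common and the same seed. A read from these bases could be counted under either name, so their counts are uncertain and are not independent of each other.

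miR-5128 and miR-1195 are shown with them, since their letters too recur in many transcripts. Here and in the sequences that follow, capitals mark the seed.
miR-5128: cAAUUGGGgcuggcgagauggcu
miR-1195: uGAGUUCGaggccagccugcuca
miR-5128 shares 9 bases with miR-3473a, miR-3473b and miR-3473e, outside its seed.

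The next sequences are those of 5 members that stood high in single libraries; a sixth, miR-1957a, is named only.
miR-5100: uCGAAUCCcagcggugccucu
miR-5119: cAUCUCAUccuggggcugg
miR-6412: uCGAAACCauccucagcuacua
miR-6937-5p: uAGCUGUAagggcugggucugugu
miR-7087-3p: uGCUGGCUcucuccccugccag
No seed was shared among these 5.

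The last set holds the most abundant member, 2 members with large differences between segments, the 3 members with the smallest spread between replicates, and one with a large spread.
miR-6240: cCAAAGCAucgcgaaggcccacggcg
miR-5121: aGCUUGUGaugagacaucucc
miR-6238: uUAUUAGUcaguggaggaaaug
miR-1981-5p: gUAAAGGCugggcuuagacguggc
miR-1981-3p: cAUCUAACccuggccuuugac
miR-1198-5p: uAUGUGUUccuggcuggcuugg
miR-6538: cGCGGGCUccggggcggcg
miR-5099 is named only. The only seed that a member shared with any of the 299 miRNAs of the table with a sequence was that of miR-3473b and miR-3473e, so 2 of 22 members (9.09%) had a seed partner, against 106 of the 277 other miRNAs (38.3%).

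The members were richer in G and C than the rest of the table, with a median of 60.9% against 45.5%. They ranged from 36.4% in miR-6238 to 100% in miR-5126. Their median length was 22 bases, as in the rest, but 5 of the 22 were under 21 bases (22.7%) against 5 of 277 (1.81%). miR-6240, at 26 bases, was the longest member.

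The hairpins of 14 members lay in an intron of another annotated gene, 4 overlapped an exon and 4 lay in no other gene of GENCODE M21. miR-5121 (chr7:45126925-45126945, minus strand) lay in an exon of Snord33, a small nucleolar RNA of the kind that guides methylation of ribosomal RNA, within the ribosomal protein gene Rpl13a, and its whole mature sequence was contained in Snord33. miR-1247-5p and miR-1249-3p lay in exons of Dio3os and 5031439G07Rik on the same strand, and miR-5126 opposite an exon of Dner. miR-6240 (chr5:114851973-114851998, plus strand), miR-6238 (chr7:53891796-53891817, minus strand), miR-6412 (chr10:122648412-122648433, plus strand) and miR-1195 (chr17:70860558-70860580, minus strand) were the members outside other genes. Intronic on the sense strand were, among others, miR-3473a (chrX:162874920-162874937, in Syap1), miR-3473e (chr5:31667296-31667316, in Rbks), miR-3473f (chr1:106546536-106546555, in Bcl2, an inhibitor of apoptosis), miR-5128 (chr2:37688212-37688234, in Strbp), miR-5100 (chr11:60728698-60728718, in Mief2), miR-5119 (chr11:98262638-98262656, in Cdk12, a kinase of RNA polymerase II), miR-6937-5p (chr12:28679325-28679348, in Adi1) and miR-7087-3p (chr9:45939521-45939542, in Sidt2). The same held for miR-6538 (chr12:26414970-26414988, in Rnf144a), miR-1198-5p (chrX:7807142-7807163, in Gripap1) and both arms of miR-1981, which lay in Marc2 at chr1:184822465-184822488 (5p) and chr1:184822409-184822429 (3p). miR-3473b (chr10:41670774-41670793, plus strand) lay opposite an intron of Ccdc162.

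A window of 15 bases was then used to ask how often each sequence recurs outside miRNA genes. Such a window occurred in transcripts of 838 genes for miR-3473b, 756 for miR-3473e, 742 for miR-1195 and 716 for miR-3473a. miR-5128 followed with 32 genes, miR-5126 with 24 and miR-3473f with 11, and the remaining members had at most 8. The level of 20 genes was reached by 6 of 22 members (27.3%) and by 2 of 277 other miRNAs (0.722%), miR-3470b and miR-574-5p. As background, B1 and B2 are short interspersed repeats present in very many copies in rodent genomes, and the letters of miR-3473b are those of a B2 element near its start. Whether the reads of these names came from miRNA precursors or from other transcripts was not tested. For miR-6240, miR-6238, miR-5100 and miR-1981-5p no annotated transcript held such a window, which says only that these letters are not in that annotation.

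Reads on miRNAs ranged from 1548581 to 11306605 per library, so that 10 CPM stood for 15.5 to 113 reads. The caput libraries were the deepest. miR-10a and miR-10b took 50.5 to 71.3% of the reads in the caput, 50.3 to 53.2% in the corpus and 33.2 to 34.5% in the cauda. Caput and corpus thus overlapped in this share. Because CPM is a share, it rises for other miRNAs when miR-10a and miR-10b fall. The 5 markers of epithelium (the miR-200 family) summed to 20990 to 31796 CPM in the caput and to at least 44552 CPM in every other library. A larger share of 1 kind of vesicle and more copies per vesicle cannot be told apart in such material.

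The members together were a small fraction of the reads, between 0.0766% and 0.890% of a library. Their summed level was 4633 ± 4080 CPM for caput, 4485 ± 3128 for corpus and 3192 ± 890 for cauda libraries (SD, n = 3), and the segments overlapped. miR-6240 took 30.5 to 96.4% of this sum, and less than the other members together only in cauda replicates 2 and 3. Without miR-6240 the sum was 512 ± 364 CPM for caput, 1248 ± 389 for corpus and 1663 ± 77.9 for cauda libraries.

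miR-6240 was the most abundant member and ranked 28 among the 358 miRNAs, with a mean of 2962 CPM. Its level was 482, 8577 and 3304 CPM in caput libraries 1, 2 and 3, and 1796, 6403 and 1510 CPM in the corpus. In the cauda it was 2446, 1399 and 742 CPM. The caput libraries alone spanned a 17.8-fold range that enclosed the values of all corpus and cauda libraries. With 2338 reads or more in every library, its counting error was 0.0166 on the log2(CPM + 1) scale, against an SD within segments of 1.47. Caput and cauda differed by −0.81 ± 0.78 (SE) on that scale, a difference not called (limma, Benjamini-Hochberg adjusted p = 0.399). Without caput replicate 1, the lowest caput library, the difference was −1.96 and was called (limma adjusted p = 0.00598).

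**Figure D1:**
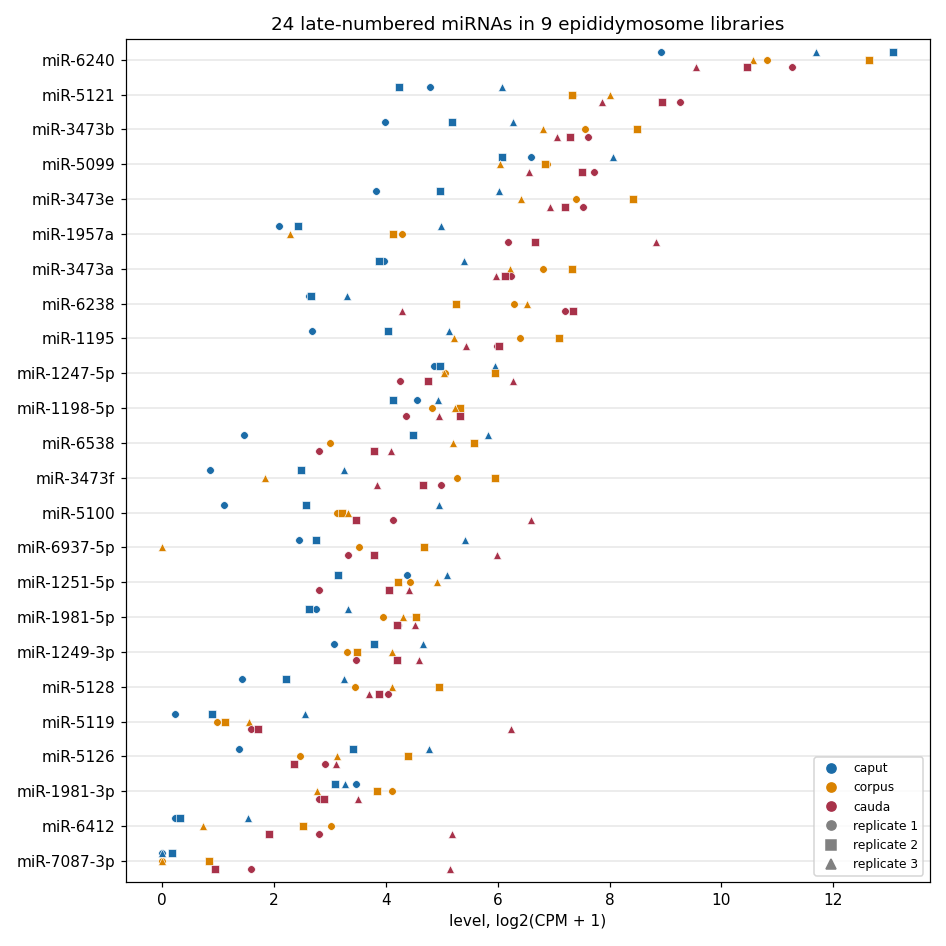
Level of each of the 24 late-numbered miRNAs, as log2(CPM + 1) on the horizontal axis, in each library; colours mark the segment and symbols the replicate. The 9 libraries of miR-6240 lie between 482 and 8577 CPM with the segments mixed, whereas the caput libraries of miR-5121 and miR-6238 lie below their corpus and cauda libraries.

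At a mean of 10 CPM, the caput held 16 members, the corpus 20 and the cauda 22. Among the other 334 miRNAs the numbers were 261, 280 and 300. Detection in all 3 segments held for 14 of 24 members (58.3%) and 231 of 334 others (69.2%). miR-1981-3p reached that mean only in the corpus, and miR-5119, miR-6412 and miR-7087-3p only in the cauda. More than 3 reads in every library were found for 20 of 24 members (83.3%) and 317 of 334 others (94.9%), and miR-5119, miR-6412, miR-6937-5p and miR-7087-3p were the members that fell short.

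The spread between replicates was examined next. It was measured as the SD of log2(CPM + 1) over the 3 libraries of a segment, combined over segments as the root of the mean variance. Its median was 0.896 over the 24 members and 0.533 over the other 334 miRNAs. Because low counts scatter more, the comparison was repeated at like levels: among miRNAs with a mean of 10 to 100 CPM the medians were 0.844 (14 members) and 0.563 (153 others). Counting error alone gave a median SD of 0.173 in the members, and the measured SD was a median of 6.96 times the counting SD, beside 5.33 times in the other miRNAs; at a mean of at least 20 CPM these were 8.84 and 8.02.

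An SD above 1, a typical deviation larger than 2-fold, was found in 11 of 24 members (45.8%) and in 8 of 334 others (2.40%). The 11 were miR-1957a, miR-3473f, miR-5100, miR-5119, miR-5126, miR-6238, miR-6240, miR-6412, miR-6538, miR-6937-5p and miR-7087-3p. Members held 13 of the 36 largest SDs of the table. The numbers left out by the rule bear on this comparison, since miR-5621-5p and miR-7033-5p, at SDs of 2.03 and 1.25, were among the 8. With the 12 rows so left out added to the members, 13 of 36 (36.1%) exceeded 1, against 6 of the 322 others (1.86%). Without cauda replicate 3 the count of members fell from 11 to 7, against 8 others.

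**Figure D2:**
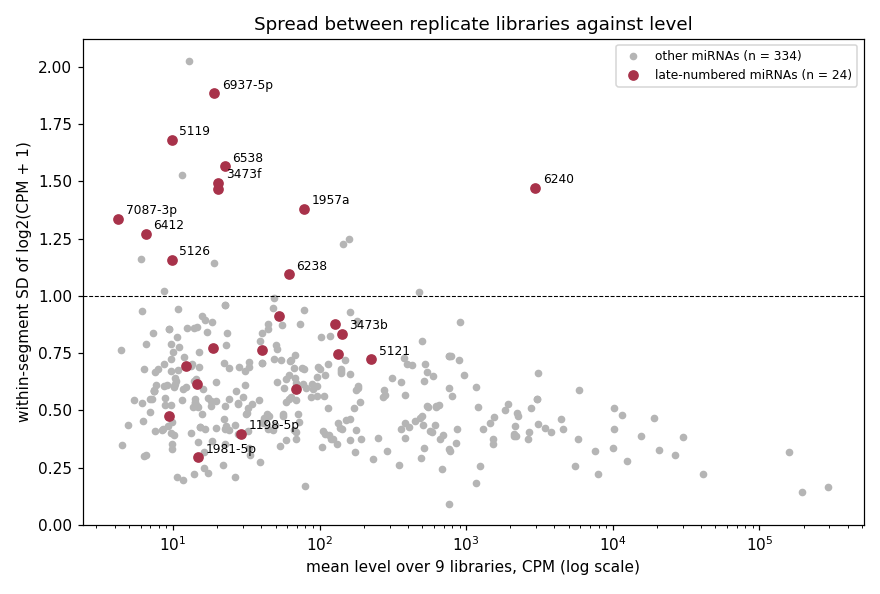
Within-segment SD of log2(CPM + 1) (vertical axis) against mean CPM over the 9 libraries (log scale) for the 24 late-numbered miRNAs (red) and the other 334 miRNAs (grey); the dashed line marks an SD of 1. Members above the line are 11 of 24 and others 8 of 334, and miR-6240 stands apart at its level.

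The largest spread was that of miR-6937-5p, at 1.89. It was at 4.42, 5.68 and 41.8 CPM in the caput, at 10.5, 24.7 and 0 CPM in the corpus, and at 8.995, 12.8 and 62.6 CPM in the cauda. Replicate 3 was thus the highest library of the caput and of the cauda but the lowest of the corpus, where 0 reads allow up to 1.94 CPM.

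miR-5119, with an SD of 1.68, was at 0.177, 0.846 and 4.85 CPM in the caput and at 0.969, 1.17 and 1.94 CPM in the corpus. In the cauda it was at 2.00, 2.29 and 73.9 CPM, that is 4, 5 and 436 reads. Only cauda replicate 3 held it above 10 CPM.

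miR-6538, with an SD of 1.57, was at 1.77, 21.4 and 55.4 CPM in the caput, 6.95, 46.6 and 35.5 in corpus libraries and 5.997, 12.8 and 16.1 in cauda libraries. Replicate 1 was the lowest of each segment, and the segments overlapped. miR-3473f, with an SD of 1.495, was at 0.796, 4.59 and 8.52 CPM in the caput, 37.5, 61.1 and 2.58 in corpus libraries and 30.5, 24.3 and 13.4 in cauda libraries. Corpus replicate 3, with 4 reads, fell among the caput values, apart from the other corpus libraries.

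At the other end, miR-1981-5p had an SD of 0.29, rank 336 among the 358. Its levels were 5.75, 5.197 and 8.99 CPM in the caput, 14.4, 22.3 and 18.7 in corpus libraries and 17.5, 17.4 and 22.05 in cauda libraries. Every caput library was below every corpus and cauda library. The next smallest spreads among the members were those of miR-1198-5p at 0.40, miR-1981-3p at 0.48 and miR-3473a at 0.60, the last above the 0.533 that was the median of the other miRNAs. miR-1198-5p was at 22.5, 16.4 and 29.6 CPM in the caput, 27.1, 39.2 and 36.8 in corpus libraries and 19.5, 38.9 and 29.8 in cauda libraries, so that all segments overlapped. miR-1981-3p was at 9.99, 7.49 and 8.64 CPM in the caput, 16.2, 13.3 and 5.81 in corpus libraries and 5.997, 6.41 and 10.3 in cauda libraries, again with overlap. These arms come from 1 hairpin, and the 5p level over the 3p level, on the log2 scale, was −0.80, −0.53 and 0.06 in the caput, −0.17, 0.75 and 1.69 in corpus libraries and 1.54, 1.44 and 1.09 in cauda libraries. The corpus values ran from within the caput range to above the cauda values, and the ratio was not tested.

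The large spreads gathered in particular libraries. In cauda replicate 3, 6 of 24 members stood at least 3-fold above both other cauda libraries (25%), against 9 of 334 other miRNAs (2.69%). These were miR-1957a, miR-5100, miR-5119, miR-6412, miR-6937-5p and miR-7087-3p. In caput replicate 3 the same was true of 5 members (20.8%) and 8 others (2.40%), and all 5 members were among those 6, miR-7087-3p being the exception. No miRNA outside the members was 3-fold above in both libraries. With TMM scaling, which sets the libraries by the bulk of the miRNAs, the members were 6 in cauda replicate 3 and 2 in caput replicate 3. The others were then 6 and 1 of 334. Low values gathered too. In caput replicate 1, 6 members lay at least 3-fold below both other caput libraries (miR-3473f, miR-5100, miR-5119, miR-5126, miR-6240 and miR-6538), against 4 of the 334 others. In corpus replicate 3 this held for 4 members (miR-1957a, miR-3473f, miR-6412 and miR-6937-5p) and 5 others. Caput replicate 2 showed the reverse, with 0 members and 32 of the 334 others that low, so low values were not particular to the members.

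The group of 6 high in cauda replicate 3 was defined after its values had been seen and is a description of these libraries.

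Within it, miR-5100 was at 1.15, 4.96 and 29.7 CPM in the caput, 7.75, 8.22 and 9.04 in corpus libraries and 16.5, 10.1 and 95.5 in cauda libraries. The corpus libraries agreed closely while those of the caput spanned 25.8-fold. Over the members as a whole, cauda replicates 1 and 2 ranked the 24 alike, with a Spearman correlation of 0.957 over miRNAs, but cauda replicate 3 gave 0.571 and 0.525 with them. Over all 358 miRNAs these values were 0.972, 0.932 and 0.938. Cauda replicate 3 was the deepest cauda library and its share of miR-10a and miR-10b was 34.5%, next to 33.2 and 33.4%. The part of depth in these gaps was not tested.

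**Figure D3:**
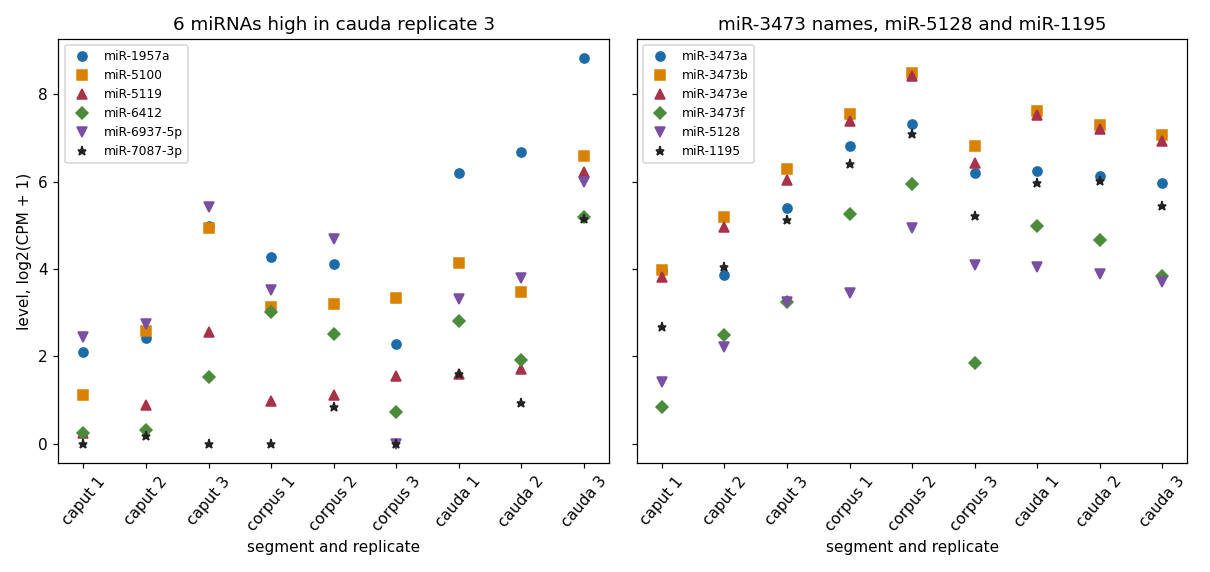
Level as log2(CPM + 1) in each library for 6 miRNAs that stand at least 3-fold above both other cauda libraries in cauda replicate 3 (left) and for the miR-3473 names with miR-5128 and miR-1195 (right). On the left the points of replicate 3 are high in the caput (except miR-7087-3p) and in the cauda; on the right the cauda libraries lie close together and the caput libraries lie lowest, except for miR-3473f, whose corpus replicate 3 lies among them.

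Differences between segments were tested for each miRNA with limma on log2(CPM + 1) over the whole table, with Benjamini-Hochberg adjustment over the miRNAs that averaged at least 10 CPM in either segment, and were called at an adjusted p under 0.05 with at least a 2-fold change. Over the 3 segments together, an adjusted p under 0.05 was reached by 12 of 24 members, beside 48.9% of all 358 miRNAs. With TMM scaling 7 members reached it, while the share of all miRNAs was 57.0%.

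From caput to corpus, 8 of the 21 members tested rose, against 22.4% of all miRNAs called and 19.0% called higher. The 8 were miR-6238, miR-5121, miR-3473e, miR-3473b, miR-3473a, miR-1195, miR-5128 and miR-1981-5p. Of these, miR-6238, miR-5128 and miR-1981-5p averaged under 10 CPM in the caput and entered the test only through their corpus level. None fell (background 3.43%), and 0 members were lower at an unadjusted p under 0.05 by limma or limma-voom, with 1 under TMM scaling. The median change over the 21 was 0.59 on the log2 scale, beside 0.47 over all 321 miRNAs tested. With TMM scaling these medians were 0.035 and −0.087. Fitted differences were then lower in the corpus for 10 of the 21, against 3 without it, and 7 members were called higher. Members whose libraries did not overlap between the segments numbered 8 (38.1%), beside 34.9% of all.

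miR-6238 had the largest rise. It was at 5.13, 5.32 and 8.87 CPM in the caput and at 77.5, 37.2 and 91.1 CPM in the corpus. The lowest corpus library lay well above the highest caput library. The difference was 3.17 ± 0.66 (SE) on the log2 scale, 8.97-fold, with an adjusted p of 0.00323 (limma).

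miR-5121, the name that lies in Snord33, was at 26.7, 17.9 and 66.7 CPM in the caput and at 162, 159 and 256 CPM in the corpus. All corpus libraries exceeded all caput libraries, and the difference was 2.52 ± 0.51 (limma adjusted p = 0.00285). In the cauda it was at 610, 490 and 233 CPM. Its difference from caput to cauda was 3.65 ± 0.51, or 12.6-fold, with the smallest adjusted p of the members (limma, 3.42e-05).

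miR-3473b was at 14.9, 35.3 and 76.7 CPM in the caput, 188, 358 and 112 in corpus libraries and 195, 157 and 133 in cauda libraries. miR-3473e ran in step with it, at 13.1, 30.2 and 64.2 CPM, then 168, 342 and 84.6, then 183, 146 and 122. Its reads were 0.757 to 0.954 times those of miR-3473b in every library. Both rose from caput to corpus, by 2.47 ± 0.55 and 2.48 ± 0.57 on the log2 scale (limma adjusted p = 0.00455 and 0.00547).

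miR-3473a was at 14.7, 13.7 and 41.3 CPM in the caput, 111, 159 and 73.0 in corpus libraries and 74.5, 69.1 and 61.4 in cauda libraries. The cauda libraries were close together and above the caput, and the highest of them lay above the lowest corpus library. It rose from caput to corpus by 2.37 ± 0.48 and was higher in cauda than in caput by 1.70 ± 0.48 (limma adjusted p = 0.00285 and 0.00856). miR-3473f differed from caput to corpus by 2.16 ± 0.84 and was not called (limma adjusted p = 0.0760). It averaged 4.64 CPM in the caput and entered that test only through its corpus level. It was called with limma-voom (0.0394), with a replicate block (0.0314), without caput replicate 3 (0.0481) and without corpus replicate 3, the library with 4 reads, at 3.42 (limma adjusted p = 0.00198). It rose from caput to cauda by 2.30 ± 0.84 (limma adjusted p = 0.0307).

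miR-1195 was at 5.395, 15.5 and 33.8 CPM in the caput, 83.2, 136 and 36.2 in corpus libraries and 62.0, 63.6 and 42.2 in cauda libraries. The highest caput library, at 33.8 CPM, lay just under the lowest corpus library. The rise to the corpus was 2.29 ± 0.59 (limma adjusted p = 0.0114). miR-5128 rose by 1.87 ± 0.53 and miR-1981-5p by 1.36 ± 0.43 (limma adjusted p = 0.0184 and 0.0300). These 3 calls were lost when single libraries were left out. Without caput replicate 1 the differences were 1.65, 1.43 and 1.29 (limma adjusted p = 0.0532, 0.115 and 0.120). Without corpus replicate 2 they were 1.86, 1.48 and 1.22 (limma adjusted p = 0.0537, 0.103 and 0.121). In either case 5 members were called, and the share called among all miRNAs fell as well, from 22.4% to 16.5% and 15.2%. miR-1981-5p was also not called without corpus replicate 1 or 3, at 1.52 and 1.34 (limma adjusted p = 0.0624 and 0.0854), and under TMM scaling its difference of 0.84 was under 2-fold.

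From corpus to cauda, 1 of the 24 members rose (4.17%), where 19.0% of all 342 miRNAs tested were called, 14.0% higher and 4.97% lower. The median change of the members was −0.07, also with miR-7087-3p at its lower limit, beside 0.18 over all. The libraries of 4 members did not overlap between these segments (16.7%), against 46.2% of all: miR-1957a, miR-5100, miR-5119 and miR-7087-3p. Of these, miR-5100, miR-5119 and miR-7087-3p averaged 8.34, 1.36 and 0.261 CPM in the corpus. They entered the test only through their cauda level, which for miR-5119 and miR-7087-3p exceeded 10 CPM in cauda replicate 3 alone. No member was lower at an unadjusted p under 0.05 by limma or limma-voom, with 1 under TMM scaling.

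The member that rose was miR-1957a. It was at 3.27, 4.35 and 30.8 CPM in the caput and at 18.4, 16.4 and 3.87 CPM in the corpus. In the cauda it was at 72.0, 101 and 454 CPM, all above every other library. The difference was 3.67 ± 0.78, 12.7-fold (limma adjusted p = 0.00346). Without cauda replicate 3 it was 2.87 (adjusted p = 0.0185).

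Several large differences here were not called in the fit reported. miR-7087-3p had 0, 1 and 0 reads in caput libraries, 0, 2 and 0 in corpus libraries and 4, 2 and 202 in cauda libraries. Its cauda mean of 12.4 CPM was at least 6.40-fold above the corpus, at a floor of 3 reads per library, but 202 of the 208 cauda reads came from replicate 3. Without cauda replicate 3 that limit was 0.752, so a rise over the corpus was not established by it. miR-5119 differed by 1.959 ± 0.94 and miR-5100 by 1.51 ± 0.83 (limma adjusted p = 0.159 and 0.224). miR-7087-3p was called with a pseudocount of 0.5 (adjusted p = 0.0439), with limma-voom (0.0371), with a replicate block (0.0319) and without caput replicate 1, cauda replicate 1 or cauda replicate 2 (0.0412, 0.0402 and 0.0126). miR-5119 was called with the block (limma adjusted p = 0.0358). Both names were tested here only because of their cauda level, so these calls add no separate support.

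From caput to cauda, 12 of the 23 members tested rose (52.2%), against 49.0% of all miRNAs called and 38.7% called higher. None fell, where 10.3% of all did, and 0 members were lower at an unadjusted p under 0.05 by limma or limma-voom. The 12 were miR-1195, miR-1957a, miR-1981-5p, miR-3473a, miR-3473b, miR-3473e, miR-3473f, miR-5121, miR-5128, miR-6238, miR-6412 and miR-7087-3p. Of these, miR-1981-5p, miR-3473f, miR-5128, miR-6238, miR-6412 and miR-7087-3p averaged under 10 CPM in the caput. They entered the test only through their cauda level. The median change of the 23 was 1.70 on the log2 scale, also with miR-7087-3p at the lower limit given below, and that of all 349 miRNAs tested 0.81. The libraries of 12 members did not overlap (52.2%), beside 54.2% of all. With TMM scaling the median of all miRNAs was 0.13 and that of the members 1.05, and 8 members were called higher with 1, miR-1251-5p, lower, beside 45.3% of all miRNAs called.

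**Figure D4:**
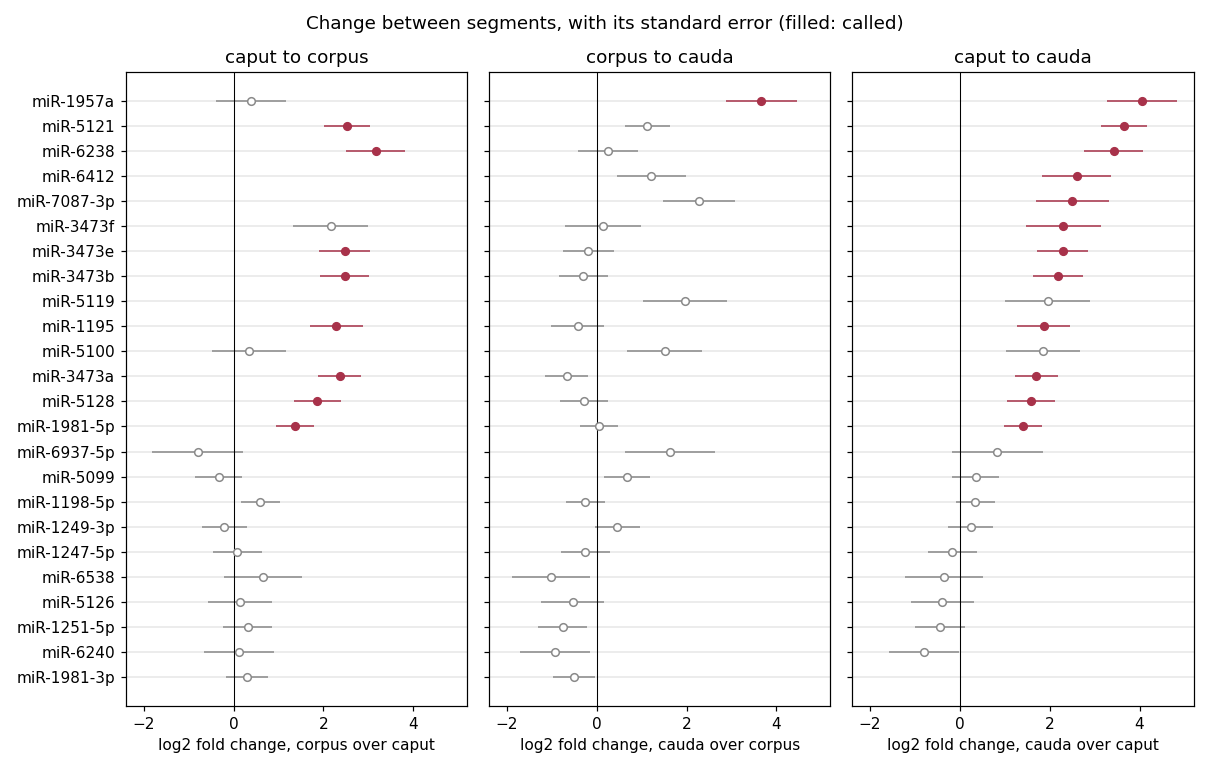
Difference in log2(CPM + 1) between segments for each member tested (points) with its standard error (bars), in the 3 comparisons; filled red points were called and open grey points were not. Called members number 8, 1 and 12 from left to right, all higher in the more distal segment.

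The largest rise was that of miR-1957a, 4.06 ± 0.78 or 16.7-fold (limma adjusted p = 0.000634), with the values given above. It was called without cauda replicate 3 too, at 3.26. miR-6238 was next after miR-5121, at 3.42 ± 0.66 (limma adjusted p = 0.000637). Its cauda libraries stood at 146, 162 and 18.5 CPM, so that replicate 3 was 7.92-fold below the lower of the other cauda libraries, against the direction of miR-1957a and its group. Without that library the difference was 4.42.

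miR-6412 was at 0.177, 0.242 and 1.89 CPM in the caput, 7.11, 4.70 and 0.646 in corpus libraries and 5.997, 2.75 and 35.3 in cauda libraries. The cauda values all exceeded the caput values, by the least between 2.75 and 1.89 CPM. It rose by 2.60 ± 0.77 (limma adjusted p = 0.0102). Without caput replicate 2 the adjusted p was 0.0623, and without cauda replicate 3 it fell below the level required for testing.

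miR-7087-3p was at 0, 0.121 and 0 CPM in the caput, 0, 0.783 and 0 in corpus libraries and 2.00, 0.916 and 34.3 in cauda libraries. The fitted difference between cauda and caput was 2.50 ± 0.81 (limma adjusted p = 0.0173). Its cauda mean was at least 34.2-fold above the caput at the floor of 3 reads per library. Without cauda replicate 3 this ratio was 4.02, but it rested on 4 and 2 cauda reads and is not a lower limit. miR-7087-3p was then no longer tested. The adjusted p was 0.0672 without caput replicate 2 and 0.0504 without caput replicate 3.

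The rises of miR-3473b and miR-3473e from caput to cauda were 2.18 ± 0.55 and 2.29 ± 0.57 (limma adjusted p = 0.00423 and 0.00376). miR-1195, miR-5128 and miR-1981-5p rose by 1.86, 1.58 and 1.41 (limma adjusted p = 0.0158, 0.0203 and 0.0120). The calls of these 3 and of miR-3473f were lost under TMM scaling, with fitted differences of 1.22, 1.02, 0.80 and 1.75, and all 4 were lost without caput replicate 1. That of miR-3473f was also lost without caput replicate 2, cauda replicate 1 or cauda replicate 2 at differences of 2.45, 2.06 and 2.22 (limma adjusted p = 0.0871, 0.0766 and 0.0728). That of miR-5128 was lost without the same 3 libraries, at 1.54, 1.499 and 1.58 (limma adjusted p = 0.0553, 0.0553 and 0.0536). miR-1195 lost its call without cauda replicate 2 (0.0536).

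From corpus to cauda the miR-3473 names, miR-1195 and miR-5128 showed no called difference. The fitted values were −0.67 for miR-3473a, −0.43 for miR-1195, −0.30 for miR-3473b, −0.28 for miR-5128, −0.19 for miR-3473e and 0.14 for miR-3473f, with SEs of 0.48 to 0.84. miR-5121 and miR-1957a were among the members with their highest mean in the cauda. miR-6240, miR-6538, miR-5126, miR-1251-5p and miR-1981-3p had their lowest mean there, and were not called in any comparison in the fit reported.

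miR-5099, the fourth most abundant member, was at 96.1, 66.6 and 267 CPM in the caput, 117, 114 and 64.6 in corpus libraries and 210, 181 and 92.9 in cauda libraries. All segments overlapped and it was not called. miR-1247-5p (chr12:110278094-110278115, minus strand) showed differences between −0.25 and 0.09 on the log2 scale over the 3 comparisons, and miR-1249-3p (chr15:84951545-84951566, minus strand) between −0.21 and 0.45. The range was −0.76 to 0.32 for miR-1251-5p (chr10:92137190-92137210, in an intron of Rmst), −0.54 to 0.14 for miR-5126 (chr1:84695890-84695911, plus strand) and −0.25 to 0.59 for miR-1198-5p. None of these 5 was called, and their SEs were 0.43 to 0.70. Under TMM scaling miR-1251-5p was called lower in cauda than in caput, at −1.07.

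Markers of other cell types were compared along the same axis. All 3 red blood cell miRNAs of the list were in the table and summed to 122 to 468 CPM in the caput and 1595 to 2208 CPM in the cauda. The 4 of 5 striated muscle miRNAs in the table summed to 55.5 to 197 CPM and 1403 to 4146 CPM, and both smooth muscle miRNAs to 50006 to 88769 and 290934 to 353014 CPM. The 3 germ cell miRNAs summed to 178 to 851 CPM in the caput and 1472 to 1826 CPM in the cauda, and the 4 leukocyte miRNAs to 52.9 to 128 and 174 to 435 CPM. In the corpus, the sums for red blood cells (234 to 657 CPM), striated muscle (121 to 167 CPM) and germ cells (366 to 429 CPM) overlapped those of the caput. Smooth muscle markers (88249 to 121178 CPM) overlapped them in 1 library, and leukocyte markers (148 to 205 CPM) did not. The 5 epithelium markers (71973 to 84209 CPM) lay above their caput sums (20990 to 31796 CPM). The part of these cells in the rises of the members was not tested.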

How the data were processed

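The deposited values are CPM, whose counts the authors made by screening reads for contaminants with Bowtie (version 1.1.1) and counting on known mature miRNAs with the miRDeep2 quantifier; read calls came from CASAVA 1.8.2 per the labels. The miRBase release and genome build are not given in the sources used here. All 9 columns were used, and values were whole multiples of what 1 read is worth (within 0.05 reads), which gave the library totals and read numbers printed here; these reads are derived values. Groups came from the labels.

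Tests used limma 3.58 in R 4.3 (lmFit and eBayes with trend) on log2(CPM + 1), over all 358 miRNAs with segment as the factor; replicates are pools, so p-values measure the spread between pools. Adjustment ran over miRNAs that averaged 10 CPM or more in either segment. Floors (3 reads) cover counting error only. Tables used Python 3.11, pandas 2.3, numpy 2.4 and matplotlib 3.10. The script was tested on simulated data. Alternatives were TMM and median-of-ratios scaling, pseudocounts of 0.5 and 5, limma-voom, a replicate block, other filters and each library left out. Values of every library are given for the 4 examples of the rule (miR-6240, miR-6238, miR-6412, miR-7087-3p), the 5 most abundant members, the 4 largest called changes each way and the 4 members with the largest and the 4 with the smallest spread. The members and lists were chosen with earlier results of these data known. Sequences are RefSeq's; gene models are GENCODE M21.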

Additional observations from a re-analysis of the deposited data

How the results depend on the processing

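The 21 called changes of single members gave 389 results under the alternatives: none reversed, 356 kept their call and 33 lost it. Many of these could not reverse, because the alternative leaves the fitted difference itself unchanged. This held for the replicate block, the other filters, fits of the compared segments alone, and leaving out a library of the third segment. Not counted in the 389 are changes that an alternative left untested. A filter at 20 CPM did so for miR-1981-5p, miR-5128, miR-6412 and miR-7087-3p. Leaving out cauda replicate 3, alone or with caput replicate 3, did so for miR-6412 and miR-7087-3p. When 1 library was left out, the 8 members called from caput to corpus numbered 5 to 9 and the 1 from corpus to cauda 1 to 2. The 12 from caput to cauda numbered 8 to 12, as did the 12 across segments. Over the same fits the share of all miRNAs called moved too. It was 14.3 to 33.3%, 9.41 to 24.3%, 37.9 to 60.3% and 38.0 to 55.0% in that order. From corpus to cauda, 2 members were called with a pseudocount of 0.5 or with limma-voom, beside 19.3 and 13.5% of all miRNAs. Without caput 3 and cauda 3 together 2 were also called, beside 25.1%. That alternative was chosen after seeing the data, as were those on SDs above 1 and on 3-fold gaps. Across segments 7 were called with TMM scaling, beside 57.0% of all miRNAs. The median SD was 0.750 to 1.097 and members with an SD above 1 numbered 7 to 14 when 1 library was left out. Among the other 334 miRNAs the median was 0.415 to 0.605 and the number 7 to 25. The highest of these, 25 (7.49%), came without caput replicate 1, where 9 members (37.5%) exceeded 1. Members 3-fold above in caput replicate 3 fell from 5 to 2 with TMM scaling, and others from 8 to 1. Without miR-6240, the most abundant member, the summed level was 512, 1248 and 1663 CPM in caput, corpus and cauda. The causes were not tested. TMM scaling moved the median change of all miRNAs from 0.47 to −0.09 (caput to corpus) and from 0.81 to 0.13 (caput to cauda).

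The labels do not say whether same-numbered libraries came from the same animals. Deviations of same-numbered libraries correlated between −0.21 and 0.41, which cannot settle it. The highest values, 0.41 and 0.40, were those of caput with corpus in replicates 1 and 2. With the replicate block, 9, 3 and 14 members were called in the 3 comparisons and 14 across segments, beside 25.9, 21.3, 51.6 and 53.1% of all miRNAs. A planned quasi-likelihood count test was not run: the deposited values are CPM, too few of them were low to establish the recovered reads as counts, and limma-voom on those reads stands in its place with the same doubt. With 3 pools per segment and 15.5 reads at 10 CPM in the shallowest library, low members are the least certain.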
